A study of Arabidopsis thaliana with 12 samples.

Results

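Transcript levels of 38 genes for SR proteins and other RNA-binding proteins of splicing were followed in Arabidopsis thaliana seedlings. The genes were picked by locus identifier, and all 38 had a row among the 32846 genes of the deposited expression table. They comprised the 18 SR protein genes, the SR-related genes SR45 and SR45a, and 18 further genes. The further genes code for glycine-rich proteins, U1 proteins, U2AF subunits, polypyrimidine tract-binding and oligouridylate-binding proteins, the cap-binding complex and the Prp19 complex. All 38 reached 1 FPKM (a fragment count scaled to gene length and to library size) in at least 3 libraries and stayed in the tests, as did 18177 genes in all. The table gives 1 level per gene and holds no splice forms.

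SR proteins bind exons and introns of a new transcript through RNA recognition motifs. Through a domain rich in arginine and serine they recruit the spliceosome, and kinases control them by phosphorylating that domain. U1 marks the start of an intron, U2AF marks its end, and the Prp19 complex acts when the spliceosome becomes active. Plants have a large SR family with subfamilies that animals lack, and many SR transcripts are themselves alternatively spliced under stress.

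The seedlings were of the Columbia 0 accession, either wild type (WT) or the mutant labelled rrm/irr, called irr here. IRR is known from published work as a regulator of immune signalling that binds RNA. The mutant is 1 line with no second allele or complemented line among these samples. Seedlings grown for 7 to 10 days were placed in liquid medium at about 15 to a well and rested for 3 h. They were then given water or 1 µM AtPep1 for 24 h in constant light. AtPep1 is a wound-derived peptide that plants perceive as a danger signal. Each of the 4 groups (WT water, WT Pep1, irr water and irr Pep1) held 3 libraries. The labels call these biological replicates, but no source ties them to different cultures or days, and the p-values then reflect only the spread among these samples.

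Read totals, worked out from the spacing of low FPKM values, had a median of 20.2 M, were at most 28.6 M in 11 libraries and reached 56.5 M in irr water replicate 3. That library also stood apart in the levels of these genes, being the lowest of the 12 for 17 of the 38, against 12.3% of all genes tested. Irr Pep1 replicate 3 was the lowest for 8 of the 38 (15.3% of all genes), and WT water replicate 2 was the highest for 11 (13.7%). The gene known as IRR, AT3G23900, was at 12.8 ± 1.93 FPKM (SD, n = 3) in WT and 11.95 ± 0.72 in irr under water, so its level does not check the genotype labels. Shoot markers were high in every library, and the root marker COBL9 stayed under 1 FPKM while EXP7 was at 0.161 to 6.11 FPKM and SCR at 8.95 to 12.5.

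Splicing genes were well expressed, and their spread within groups was smaller than that of all genes. Their median level was 36.3 FPKM, against 9.51 for all genes tested, and 36 of the 38 lay above the median of all genes. On the log2(FPKM + 1) scale, the median SD within groups was 0.13 for the 38 genes and 0.18 for all genes. These sets differ in level, and spread was not compared with genes of similar level. The SD was smallest for SKIP, at 0.06, and largest for GRP7, at 0.28. Levels per length ran from 0.97 FPKM for SCL28 to 433 FPKM for GRP7, as means over 12 libraries.

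**Figure D1:**
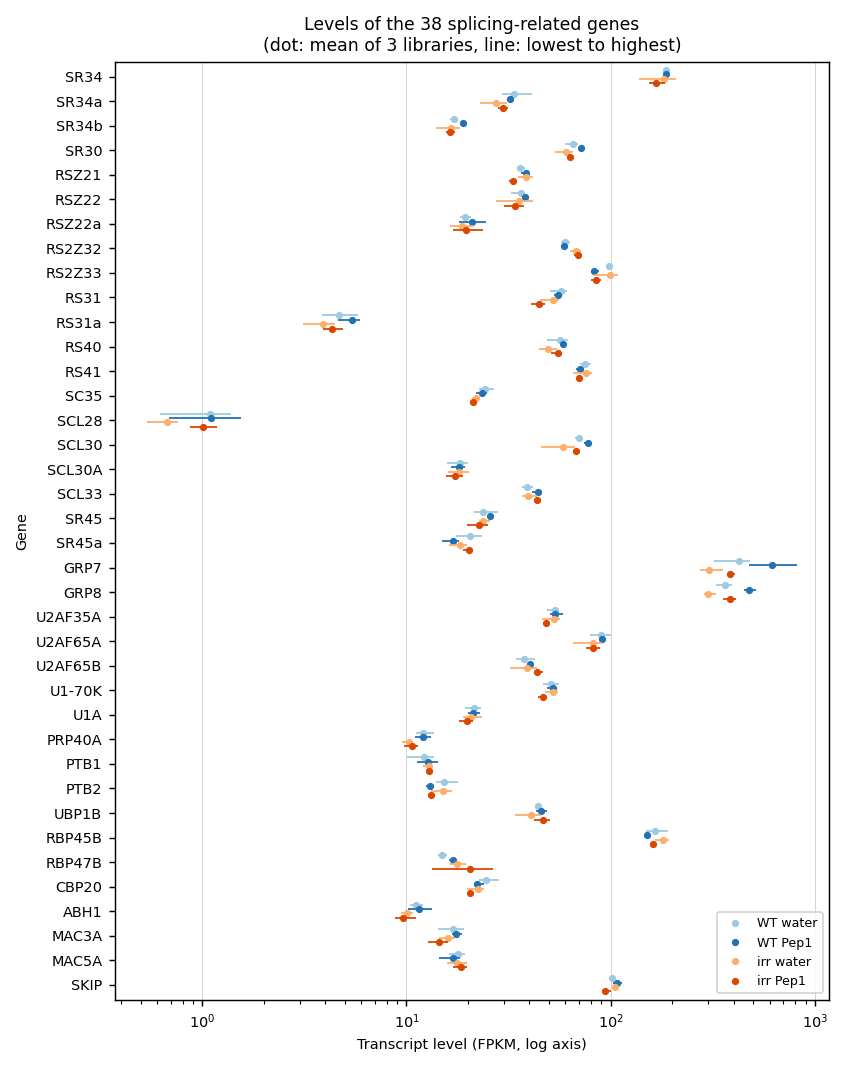
Transcript levels of the 38 genes (FPKM, log axis) in the 4 groups, with dots for the mean of 3 libraries and lines from the lowest to the highest library. GRP7 and GRP8 lie far to the right, SCL28 lies near 1 FPKM, and the 4 groups overlap for most genes.

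Few of the 38 genes passed the test in any comparison. Differences were taken on the log2(FPKM + 1) scale, which understates changes of low genes, and are given ± SE. They were tested two-sided with limma, with Benjamini-Hochberg adjustment over all genes tested and a threshold of 0.05. Pep1 against water gave 0 of 38 calls in WT, where 3.47% of all genes were called. At an unadjusted p under 0.05 there were 3 of 38, against 20.9% of all genes. In irr the same comparison gave 0 of 38 calls (1.99% of all genes) and 2 of 38 at an unadjusted p under 0.05 (3315 of the 18177 genes).

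Between the genotypes there were also no calls in single treatments. Under water limma called 0 of 38 (3.92% of all genes), with 2 of 38 at an unadjusted p under 0.05 (21.9%). With Pep1 it called 0 of 38 (1.53%), with 7 of 38 at an unadjusted p under 0.05 (17.7%).

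Averages over the other factor, with 6 libraries against 6, gave a few calls. Over both treatments, 3 of 38 genes differed between irr and WT, where 12.4% of all genes did. GRP7 and GRP8 were lower in irr (3.9% of all genes were lower) and RS2Z32 was higher (8.55% were higher). With equal library medians the calls were 5 lower and 0 higher, without RS2Z32, where 16.4% of all genes were called. At an unadjusted p under 0.05 there were 7 of 38, against 29.7% of all genes. Over both genotypes 1 of 38 genes, GRP8, rose with Pep1, where 11.6% of all genes were called, 6.1% higher and 5.45% lower. Here 5 of 38 had an unadjusted p under 0.05, against 28.9%. The interaction of genotype and Pep1 gave 0 of 38 calls and 0% of all genes by limma, with 3 of 38 and 6.71% of all genes at an unadjusted p under 0.05.

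Separation of 3 against 3 libraries was counted for each comparison of single groups. With Pep1 in WT, 5 of 38 genes were higher in every Pep1 library and 2 lower, where groups did not overlap for 33.4% of all genes (20.8% higher and 12.6% lower). In irr these were 3 higher and 2 lower, against 17.9% (7.03% and 10.8%). Between genotypes under water 2 were higher and 3 lower in irr, against 28.1% (17.7% and 10.4%). With Pep1 4 were higher and 11 lower in irr, against 23.2% (10.4% and 12.8%). Only this last count was above the share of all genes.

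The 95% intervals bound what could have been missed. For the averages over both treatments and over both genotypes, 36 of the 38 intervals lay within a log2 difference of 0.5 either way, as did 68.2% and 68% of those of all genes. In the 4 comparisons of single groups, 31 to 34 of the 38 intervals did so, against 48.8% to 51.8% for all genes. For the interaction 23 of 38 did, so differences in the Pep1 response between genotypes were bounded less tightly. These shares too were not matched for level.

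**Figure D2:**
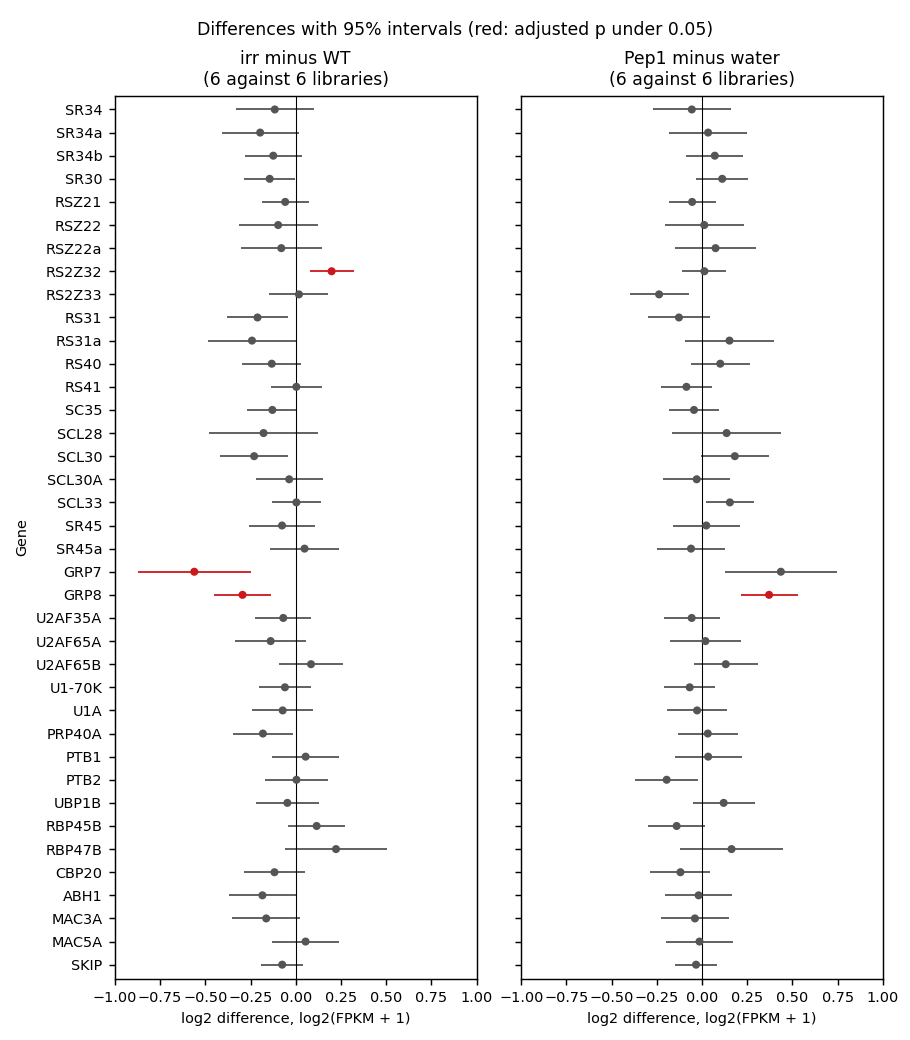
Differences of the 38 genes on the log2(FPKM + 1) scale with 95% intervals, irr minus WT on the left and Pep1 minus water on the right, each over 6 against 6 libraries; red marks an adjusted p under 0.05. GRP7 and GRP8 lie farthest from 0 on both sides, and RS2Z32 is the red point to the right of 0 in the genotype panel.

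Directions were uneven for genotype. In irr against WT over both treatments 27 of the 38 estimates were below 0, with a median of -0.08, while 50.6% of all genes were below 0 with a median of 0.00. With equal library medians 32 of the 38 were below 0, against 60.8% of all genes, whose median moved to -0.06. With quantile normalization these were 34 of 38 and 60.6%, with a median of all genes of -0.05. For Pep1 over both genotypes 18 of 38 were below 0 (45.9% of all genes), and 25 of 38 with equal library medians (54.4%). For irr against WT under water alone 26 of 38 were below 0, but without irr water replicate 3 this became 16 of 38. The shares of all genes below 0 were 45.3% and 40.9%. For irr against WT with Pep1 28 of 38 were below 0, against 55.4% of all genes. FPKM is a relative measure. In whole seedlings, fewer cells of a type, less RNA per cell and a shift in library scaling cannot be told apart.

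GRP7 [AT2G21660] and GRP8 [AT4G39260], which code for small glycine-rich RNA-binding proteins, were the most abundant of the 38. Both were lower in irr over both treatments, and GRP8 also rose with Pep1. Both are known as outputs of the circadian clock that damp their own and each other's expression through alternative splicing. GRP7 is also known for a role in immunity and as the target of a bacterial effector. GRP7 was at 483, 322 and 475 FPKM in WT water, and at 475, 814 and 565 FPKM in WT Pep1. The irr libraries held 356, 274.5 and 279.6 FPKM under water, and 378, 372 and 405 FPKM with Pep1. All irr Pep1 libraries were below all WT Pep1 libraries, while under water WT replicate 2 fell within the range of irr.

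GRP7 was lower in irr over both treatments by -0.56 ± 0.14 (limma adjusted p = 0.0261). Within each treatment the difference had the same sign but missed the threshold, at -0.48 ± 0.20 under water (adjusted p = 0.194) and, in Pep1-treated seedlings, -0.65 ± 0.20 (adjusted p = 0.130). Its Pep1 effect over both genotypes was 0.44 ± 0.14 and also missed it (adjusted p = 0.0676). The genotype call was lost without WT water replicate 1 (adjusted p = 0.0687), WT water replicate 3 (0.0555) or irr water replicate 3 (0.0650). Without the filter on low genes the adjusted p was 0.0543.

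GRP8, annotated in the reference as CCR1, was at 367, 329 and 391 FPKM in WT water, and at 467, 514 and 450.4 FPKM in WT Pep1. The irr values were 329, 285.5 and 287.6 FPKM under water, and 383, 353 and 409.8 FPKM with Pep1. Every Pep1 library was above every water library of its genotype, and every irr library was below every WT library of its treatment, under water by only 329.0 against 329.1 FPKM. GRP8 rose with Pep1 over both genotypes by 0.37 ± 0.07 (limma adjusted p = 0.00925), with 0.40 ± 0.10 in WT (adjusted p = 0.0563) and 0.34 ± 0.10 in irr (adjusted p = 0.107). This call held without each library in turn, at 0.34 to 0.40.

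GRP8 was lower in irr over both treatments by -0.29 ± 0.07 (limma adjusted p = 0.0229). The genotype difference was -0.27 ± 0.10 under water (adjusted p = 0.153) and, in Pep1-treated seedlings, -0.32 ± 0.10 (adjusted p = 0.137). It missed the threshold without WT water replicate 1 (adjusted p = 0.0547) or 3 (0.0509), WT Pep1 replicate 1 (0.0509) or 2 (0.0572), or irr water replicate 3 (0.0532). GRP7 and GRP8 are close in sequence, so how their shared reads were divided is uncertain.

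**Figure D3:**
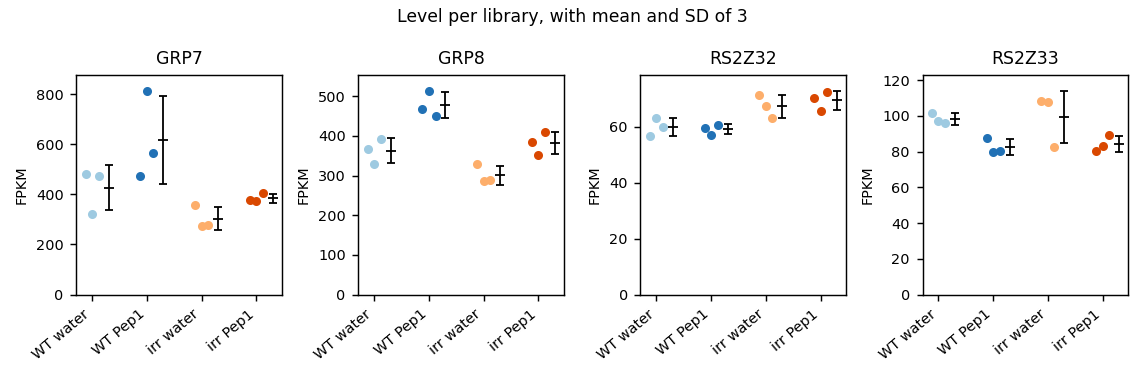
FPKM of GRP7, GRP8, RS2Z32 and RS2Z33 in each library (dots), with the mean and SD of 3 libraries (black), on axes that start at 0. WT Pep1 is the highest group for GRP7 and GRP8, the 6 irr libraries are the highest for RS2Z32, and water libraries other than irr water replicate 3 are the highest for RS2Z33.

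Clock genes were measured beside these clock-controlled genes. Summed over 11 clock genes, none of them at 0, FPKM ran from 305 to 373 in WT water and 425 to 461 in WT Pep1. In irr the sums were 347 to 395 under water and 347 to 377 with Pep1. PRR7 was the largest part of each sum, at 125.6 to 219 FPKM in single libraries, so the sums are weighted to that gene and do not give clock phase. LHY, a morning-phased repressor, rose with Pep1 in WT by 0.72 ± 0.17 (limma adjusted p = 0.0395) and was higher in irr under water by 0.78 ± 0.17 (adjusted p = 0.0304). In irr its Pep1 estimate had the other sign, at -0.29 ± 0.17 (adjusted p = 0.381), from 26.3 ± 5.50 to 21.1 ± 3.19 FPKM (SD, n = 3). Its interaction was -1.01 ± 0.24 (adjusted p = 0.420). PRR5, a later-phased repressor, rose with Pep1 over both genotypes by 0.49 ± 0.13 (adjusted p = 0.0307). Over both treatments 0 of the 11 clock genes were called between genotypes (12.4% of all genes), with 5 at an unadjusted p under 0.05 (29.7%). The part of clock state in the GRP7 and GRP8 levels was not tested.

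Shoot markers also moved with Pep1. Summed FPKM of LHCB1.1, LHCB2.1 and RBCS1A was 24800 to 26300 in WT water and 15400 to 19200 in WT Pep1, and 19500 to 22400 and 13400 to 19800 in irr. Over both genotypes 2 of the 3, LHCB1.1 (limma adjusted p = 0.0426) and RBCS1A (0.0289), fell with Pep1, as did 5.45% of all genes. Between genotypes 0 of 3 were called over both treatments, against 12.4% of all genes. Of the root list SCR made up most of the sum, which was 10.9 to 12.2, 13.0 to 16.9, 13.8 to 19.1 and 10.5 to 12.3 FPKM in WT water, WT Pep1, irr water and irr Pep1. EXP7, a root hair expansin gene, was at 4.36 ± 1.51 FPKM in irr water and 0.486 ± 0.285 in irr Pep1 (SD, n = 3). It fell with Pep1 in irr by 1.83 on the log2 scale (limma adjusted p = 0.0312), while its estimate in WT was 0.58 ± 0.36 (adjusted p = 0.392) and its interaction -2.41 ± 0.50 (adjusted p = 0.349). The part of tissue make-up in the levels of the 38 genes was not tested.

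The RS2Z subfamily, plant SR proteins with a pair of zinc knuckles, held the remaining genotype call. RS2Z32 [AT3G53500] was at 56.8, 63.1 and 59.8 FPKM in WT water and at 59.4, 57.1 and 60.7 FPKM in WT Pep1. The irr libraries had 71.35, 67.5 and 63.3 FPKM under water and 70.5, 65.8 and 72.3 FPKM with Pep1. All 6 irr libraries were above all 6 WT libraries, by 63.27 against 63.11 FPKM at the boundary, a separation found for 1 of the 38 and for 4.33% of all genes (3.19% higher and 1.14% lower).

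RS2Z32 was higher in irr by 0.20 ± 0.06 (limma adjusted p = 0.0387). The difference was 0.17 ± 0.08 under water (adjusted p = 0.242) and, in Pep1-treated seedlings, 0.23 ± 0.08 (adjusted p = 0.160). The call was lost with equal library medians (0.15, adjusted p = 0.145) and quantile normalization (0.14, adjusted p = 0.186). It was also lost in 9 of the 12 fits without 1 library, at adjusted p from 0.0522 to 0.0877, and held without WT water replicate 2, irr water replicate 3 or irr Pep1 replicate 2. RS2Z32 overlaps the gene AT3G53490 in the reference, and whether counting used strand is not stated.

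RS2Z33 [AT2G37340], its closest relative, was the more abundant of the pair. It was at 101.8, 97.2 and 95.8 FPKM in WT water and at 87.8, 79.7 and 80.2 FPKM in WT Pep1. In irr, levels were 108, 107.6 and 82.5 FPKM under water and 80.5, 83.0 and 89.4 FPKM with Pep1. All WT Pep1 libraries were below all WT water libraries, while in irr replicate 3 under water lay within the Pep1 range.

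For RS2Z33 the Pep1 effect over both genotypes was -0.24 ± 0.07 and missed the threshold (limma adjusted p = 0.0601). Without irr water replicate 3 it was -0.30 and passed (adjusted p = 0.00946), as it did with equal library medians (-0.28, adjusted p = 0.0457) and without irr Pep1 replicate 3 (-0.26, adjusted p = 0.0442). Of all genes 12.2%, 13.1% and 17.8% were called in those fits, against 11.6% as reported. The genotype difference of RS2Z33 was 0.02 ± 0.07. RS2Z33 overlaps AT2G37330 and a long noncoding RNA gene in the reference.

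The summed level of the SR family was not tested and is described here. Over the 18 SR genes FPKM summed to 897 ± 35.2 in WT water, 902 ± 8.69 in WT Pep1, 866 ± 119 in irr water and 841 ± 13.6 in irr Pep1 (SD, n = 3). The lowest sum, 732 FPKM, and the highest, 956 FPKM, were both irr water libraries. The RS2Z pair made up 17.64 ± 0.615% of the sum in WT water, 15.7 ± 0.435% in WT Pep1, 19.3 ± 0.577% in irr water and 18.3 ± 0.539% in irr Pep1. Over the 12 libraries the SR subfamily held 31.0% to 35.2%, RSZ 9.54% to 11.1%, RS 20.0% to 22.3%, and SC35 with SCL 15.7% to 18.7%.

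In the SR subfamily proper, related to the animal splicing factor SRSF1, SR34 [AT1G02840] was the most abundant gene. It made up 18.4% to 22.0% of the family sum in single libraries. SR34 was at 187 ± 3.92 FPKM in WT water, 187 ± 3.92 in WT Pep1, 182 ± 39.5 in irr water and 166 ± 16.9 in irr Pep1. The irr water spread came from replicate 3, at 137 FPKM against 209 and 200.1 in the others. SR34b [AT4G02430] was the lowest of the subfamily at 13.9 to 19.3 FPKM, SR34a ran from 22.8 to 41.3 and SR30 from 53.4 to 74.7. None of the 4 was called by limma in any comparison, and their genotype estimates over both treatments were -0.20 to -0.12 (unadjusted p under 0.05 for 1 of them).

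The RSZ proteins carry a single zinc knuckle. RSZ21 [AT1G23860] and RSZ22 [AT4G31580] had similar means over the 12 libraries, 36.6 and 36.0 FPKM, and RSZ22a [AT2G24590] had 19.6 FPKM. RSZ21 had the smallest interaction p of the 38. It was at 34.95, 37.9 and 35.1 FPKM in WT water, 39.6, 36.5 and 39.7 in WT Pep1, 39.0, 41.7 and 35.2 in irr water, and 31.9, 33.1 and 34.6 in irr Pep1. Every irr Pep1 library was below all others, yet the Pep1 effect in irr was -0.21 ± 0.08 (limma adjusted p = 0.220) and the interaction -0.31 ± 0.12 (adjusted p = 0.667).

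RS proteins form a plant subfamily with paired recognition motifs and no zinc knuckle. RS41 [AT5G52040] was the highest, at 65.6 to 81.4 FPKM, and RS31a [AT2G46610] the lowest, at 3.12 to 5.95 FPKM. RS31 [AT3G61860], whose splicing is known to respond to light signals from the chloroplast, was at 55.2 ± 2.63 FPKM in WT Pep1 and 44.6 ± 3.53 in irr Pep1. Those groups did not overlap, and the difference was -0.30 ± 0.11 with Pep1 (limma adjusted p = 0.183) and -0.21 ± 0.08 over both treatments (adjusted p = 0.0947). RS40 ran from 44.6 to 61.7 FPKM. None of the 4 was called on the deposited scale, and RS31 was called lower in irr with equal library medians and with quantile normalization.

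Genes of SC35, related to the animal factor of that name, and of the SC35-like SCL proteins, which have a charged extension before the recognition motif, spanned the widest range of levels. SCL30 [AT3G55460] was the highest at 45.4 to 79.3 FPKM, and SCL28 [AT5G18810], known for a role in the cell cycle, was the lowest at 0.54 to 1.55 FPKM. SCL30 was at 69.8 ± 2.505 FPKM in WT water and 58.7 ± 11.6 in irr water, a difference of -0.27 ± 0.12 (limma adjusted p = 0.230). Irr water replicate 3 was the low library, at 45.4 FPKM against 66.7 and 63.9, and without it the difference was -0.10. SC35 ran from 20.4 to 26.9 FPKM, SCL30A from 15.6 to 20.3 and SCL33 from 36.7 to 46.0, and none of the 5 was called on the deposited scale.

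SR45 [AT1G16610], which has a domain rich in arginine and serine on either side of its recognition motif, was at 19.8 to 28.1 FPKM and was not called in any comparison. SR45a [AT1G07350], a relative known to respond to heat and other stress, was at 17.41, 23.4 and 20.5 FPKM in WT water and 18.1, 14.9 and 17.8 in WT Pep1. Levels in irr were 19.8, 19.1 and 16.1 FPKM under water and 20.3, 21.3 and 18.9 with Pep1. All irr Pep1 libraries were above all WT Pep1 libraries. The interaction was 0.39 ± 0.17 and missed the threshold (limma adjusted p = 0.735).

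Heat genes were measured beside SR45a. Over 8 heat genes, of which 7 passed the filter, FPKM summed to 63.9 to 67.7 in WT water, 77.9 to 82.8 in WT Pep1, 68.8 to 95.2 in irr water and 85.1 to 149 in irr Pep1. HSP70 was at 27.5, 43.1 and 16.5 FPKM in irr Pep1 and at 20.3 FPKM in irr water replicate 3, against 7.18 to 11.3 FPKM in the other 8 libraries. Its Pep1 effect in irr was 1.22 ± 0.34 (limma adjusted p = 0.0889). The single called gene of the list was HSFA7A, a heat shock factor gene. With Pep1 it rose in WT by 0.40 ± 0.08 (limma adjusted p = 0.0252) and over both genotypes by 0.24 ± 0.06 (0.0241). Of all genes 3.47% were called in WT and 11.6% over both genotypes. HSFA7A was also the largest part of each heat sum, at 40.1 to 55.75 FPKM in single libraries. Between genotypes over both treatments limma called 0 of the 7 (12.4% of all genes), with 5 at an unadjusted p under 0.05 (29.7%). None of the 7 estimates was below 0, against 50.6% of all genes. With Pep1, 5 of the 7 were higher in every irr library than in every WT library (10.4% of all genes). The part of heat-type stress in the SR45a values was not tested.

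U1 proteins help to define the start of an intron. U1-70K [AT3G50670], which contacts SR proteins, was the highest at 44.0 to 55.7 FPKM, and PRP40A [AT1G44910], a scaffold protein of U1, the lowest at 9.52 to 13.6 FPKM. U1A [AT2G47580] ran from 18.0 to 23.5 FPKM. None of the 3 was called on the deposited scale. The genotype estimates over both treatments were -0.18 for PRP40A (limma adjusted p = 0.137), -0.07 for U1A and -0.06 for U1-70K, and PRP40A was called lower in irr with equal library medians and with quantile normalization.

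U2AF recognises the end of the intron, with a large subunit on the pyrimidine tract and a small subunit on the acceptor site. U2AF65A [AT4G36690], a large subunit, ran from 65.7 to 100.6 FPKM and U2AF65B [AT1G60900], the other large subunit, from 32.3 to 46.5. The small subunit gene U2AF35A [AT1G27650] ran from 46.0 to 58.1 FPKM. None was called alone. Over both treatments the genotype difference was -0.14 ± 0.09 for U2AF65A (limma adjusted p = 0.333) and 0.08 ± 0.08 for U2AF65B (adjusted p = 0.527).

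The ratio of the U2AF large subunits, which hardly depends on how a library is scaled, separated the genotypes. Each ratio was taken within a library as a log2 difference of FPKM + 1 and tested by an exact permutation of labels within the strata of the other factor. That gives 400 arrangements, 2-sided, with a smallest p of 0.005, and p was adjusted over 20 tests of 10 pairs. Ratios of other gene pairs were not taken. There is thus no background share for a called or separated ratio, and none is read as particular to these pairs. U2AF65A to U2AF65B was 1.18, 1.23 and 1.29 in WT water and 1.14, 1.12 and 1.20 in WT Pep1. For irr the values were 1.047, 1.078 and 1.00 under water and 0.92, 0.83 and 0.94 with Pep1.

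All 6 irr libraries had a lower U2AF65A to U2AF65B ratio than all 6 WT libraries. The difference was -0.22 (exact p = 0.005, the smallest the test can give, adjusted p = 0.0429). The FPKM ratio was 2.39 ± 0.0967 in WT water and 2.09 ± 0.0512 in irr water, and 2.26 ± 0.0674 and 1.88 ± 0.0736 with Pep1 (SD, n = 3). With Pep1 against water the log2 ratio was lower by -0.11 (exact p = 0.01, adjusted p = 0.0429), a call kept in 0 of 12 cases without 1 library (adjusted p from 0.05 to 0.075). Without 1 library, where the test has 200 arrangements, the genotype difference was -0.24 to -0.21 with an exact p of 0.005 in each case, and the adjusted p was 0.025 to 0.0667. It stayed under 0.05 only without WT water replicate 3, and without irr water replicate 3 it was 0.05.

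RS2Z32 to RS2Z33 was called for both factors. Mean log2 ratios were -0.71 ± 0.11 in WT water, -0.48 ± 0.08 in WT Pep1, -0.55 ± 0.15 in irr water and -0.27 ± 0.08 in irr Pep1 (SD, n = 3). RS2Z32 thus stood closest to RS2Z33 in irr Pep1, and the irr Pep1 libraries were above all others. The ratio was higher in irr by 0.18 (exact p = 0.01) and higher with Pep1 by 0.25 (exact p = 0.005), both with an adjusted p of 0.0429. Without 1 library the genotype difference was 0.14 to 0.21 and was called in 0 of 12 cases (adjusted p from 0.05 to 0.111). The Pep1 difference was then 0.22 to 0.29 and was called in 1 of 12 (adjusted p from 0.025 to 0.0667).

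Of the other pairs 3 were called for Pep1 and 0 for genotype, each with an exact p of 0.015 and an adjusted p of 0.0429. PTB1 to PTB2 was higher with Pep1 by 0.23, from a mean of -0.26 in water to -0.04 with Pep1. RS31 to RS31a was lower with Pep1 by -0.28, from 3.40 to 3.12. SCL30A to SCL33 was lower by -0.18, from -1.07 to -1.26. In each pair some Pep1 libraries overlapped water libraries. Without 1 library each kept its sign, and PTB1 to PTB2 was called in 1 of 12 cases (adjusted p from 0.04 to 0.111), RS31 to RS31a in 0 (0.05 to 0.1) and SCL30A to SCL33 in 1 (0.025 to 0.1).

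The remaining ratios did not pass. RS40 to RS41 was 0.19 higher with Pep1 at an adjusted p of 0.05 (exact p = 0.02), and SR30 to SR34 was 0.17 higher (exact p = 0.045, adjusted p = 0.09). GRP7 to GRP8 was -0.27 lower in irr (exact p = 0.04, adjusted p = 0.0889), near 0 in both irr groups and at 0.21 and 0.34 in WT water and WT Pep1. SR34 to SR34b and RSZ22 to RSZ22a missed the threshold for both factors, at exact p from 0.1 to 0.935. All 7 called ratios had the same adjusted p. With a pseudocount of 0.1 each of the 7 had an adjusted p of 0.05, and no ratio was called.

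**Figure D4:**
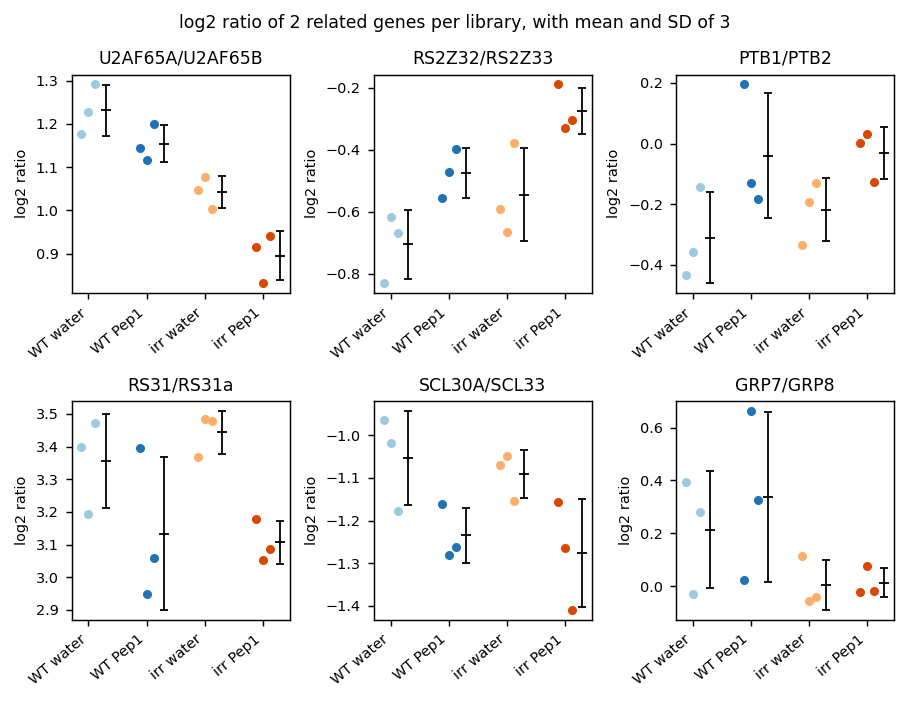
log2 ratio of related genes in each library (dots), with the mean and SD of 3 libraries (black), for the 5 called pairs and GRP7 to GRP8. U2AF65A to U2AF65B lies lower in the 6 irr libraries than in the 6 WT libraries, and RS2Z32 to RS2Z33 is highest in irr Pep1.

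Polypyrimidine tract-binding proteins repress exons and are known to regulate their own splicing. PTB1 [AT3G01150] was at 10.05 to 14.3 FPKM and PTB2 [AT5G53180] at 12.4 to 17.8 FPKM. PTB2 had a Pep1 estimate of -0.20 ± 0.08 over both genotypes (limma adjusted p = 0.130) and PTB1 one of 0.03 ± 0.08. PTB1 overlaps AT3G01160 in the reference.

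The oligouridylate-binding and related proteins bind U-rich or poly(A) RNA and are known from stress granules. RBP45B [AT1G11650] was the highest of these at 147 to 192 FPKM, UBP1B [AT1G17370] ran from 33.8 to 50.2 and RBP47B [AT3G19130] from 13.4 to 26.5. None was called in any comparison by limma on all 12 libraries. RBP47B in irr Pep1 was at 21.4, 26.5 and 13.4 FPKM, so its replicate 3 lay below every WT library while the others lay above every WT library. Without that library RBP47B was called higher with Pep1 over both genotypes (0.29, limma adjusted p = 0.0252). It was then also called higher in irr, by 0.35 over both treatments (adjusted p = 0.00987) and 0.48 with Pep1 (0.0263). Leaving out that library also raised the share of all genes called in these 3 comparisons. The shares went from 11.6% to 17.8%, from 12.4% to 18% and from 1.53% to 9.06%. The library was singled out after its value was seen.

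The cap-binding complex, made of CBP20 [AT5G44200] and ABH1 [AT2G13540], binds the capped end of a transcript and aids splicing of the first intron. CBP20 ran from 19.7 to 28.3 FPKM and ABH1 from 8.81 to 13.3. Neither was called, and both genotype estimates over both treatments were below 0, at -0.12 ± 0.08 for CBP20 (limma adjusted p = 0.328) and -0.18 ± 0.08 for ABH1 (adjusted p = 0.170).

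Of the Prp19 complex, SKIP [AT1G77180], known for a role in splicing of clock transcripts, was the highest at 90.6 to 114 FPKM. MAC3A [AT1G04510], the plant Prp19 ubiquitin ligase with a known role in immunity, was the lowest at 12.8 to 19.1 FPKM. MAC5A [AT1G07360], an RNA-binding subunit, ran from 14.4 to 19.8. SKIP was at 103, 106 and 114 FPKM in WT Pep1 and at 90.6, 91.8 and 100.1 in irr Pep1, and those groups did not overlap. Its genotype difference with Pep1 was -0.19 ± 0.07 (limma adjusted p = 0.208) and its interaction -0.23 ± 0.10 (adjusted p = 0.735).

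Other splicing genes outside the 38 gave calls in the averaged comparisons. Of 29 further genes 26 passed the filter. Over both treatments 3 of the 26 were lower in irr and 0 higher, with a median difference of -0.10. Of all genes 3.9% were lower and 8.55% higher, with a median of 0.00. PRMT5, an arginine methyltransferase for splicing proteins, was lower by -0.38 (limma adjusted p = 0.0303). All 6 irr libraries were below all 6 WT libraries, by only 7.725 against 7.734 FPKM at the boundary. Such a separation was found for 1.14% of all genes. PRP40C (-0.25, adjusted p = 0.0464) and RZ-1C, a glycine-rich zinc-knuckle protein that binds SR proteins (-0.26, adjusted p = 0.0498), were the others. Both only just passed and had their lowest level in irr water replicate 3, at 4.90 and 21.0 FPKM. Calls of genes outside the 38 were not followed through other settings or without single libraries. Limma called 0 of 26 in the interaction and in each comparison of single groups. At an unadjusted p under 0.05 there were 2 in the interaction (6.71% of all genes) and 2 to 7 in the others (17.7% to 21.9%).

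With Pep1 over both genotypes, 2 of the 26 rose and 3 fell, where 6.1% of all genes rose and 5.45% fell. The median was -0.03, against 0.02 for all genes. STA1, a U5-associated splicing factor, rose from 14.9 ± 1.17 to 18.4 ± 0.822 FPKM in WT and from 15.1 ± 1.57 to 18.7 ± 1.23 in irr (0.29 ± 0.07, limma adjusted p = 0.0225). RZ-1C rose by 0.27 ± 0.08 (adjusted p = 0.0416). LIS, a U4/U6-associated protein, fell by 0.36 on the log2 scale (adjusted p = 0.0201). PRL1, a Prp19 complex subunit, fell by 0.25 (adjusted p = 0.0222), and U2AF35B, a small subunit of U2AF, fell by 0.21 (adjusted p = 0.0372). For STA1 and PRL1 the 6 Pep1 libraries did not overlap the 6 water libraries, a separation found for none of the 38 and for 3.94% of all genes (1.79% higher and 2.15% lower).

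Of 3 genes for kinases of SR proteins, AFC2 [AT4G24740], a LAMMER-type kinase that phosphorylates SR proteins, rose with Pep1. It was at 26.8, 29.9 and 27.0 FPKM in WT water and 37.2, 37.9 and 34.7 in WT Pep1. Its irr levels were 30.5, 27.9 and 26.3 FPKM under water and 38.5, 37.7 and 32.1 with Pep1. Every Pep1 library was above every water library, as for 1.79% of all genes. The effect was 0.36 ± 0.07 over both genotypes (limma adjusted p = 0.00758), with 0.38 in WT (adjusted p = 0.0509) and 0.34 in irr (adjusted p = 0.0867). AFC1 and SRPK4 were not called in that comparison, at 0.17 ± 0.06 and 0.14 ± 0.07, where 6.1% of all genes were called higher. In WT alone all 3 kinases were higher in every Pep1 library (20.8% of all genes). All 3 had an unadjusted p under 0.05 there (20.9%), and 0 were called. In irr 1 of 3 was separated in that way (7.03%).

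**Figure D5:**
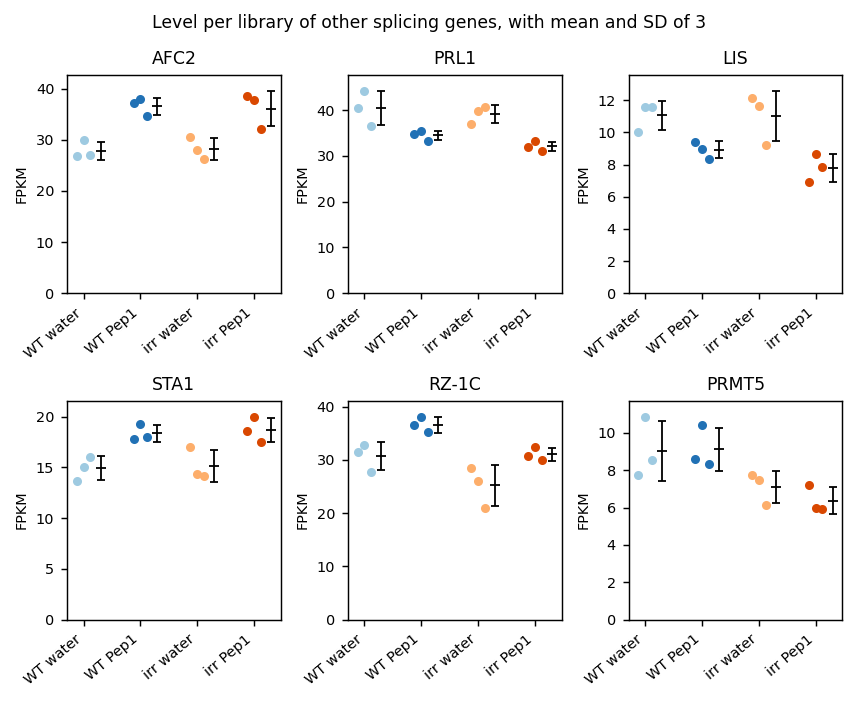
FPKM per library (dots) of AFC2 and of 5 further splicing genes, with the mean and SD of 3 libraries (black), on axes that start at 0. AFC2, STA1 and RZ-1C are higher and PRL1 and LIS lower with Pep1, and PRMT5 is lower in irr.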

How the data were processed

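RNA from 12 pools of seedlings was sequenced; the labels state 20 M raw paired-end reads for each. The authors deposited FPKM values, 1 column per library; no aligner, counting tool, genome build, annotation or strand setting is named in the sources, so no coordinates or sequences are printed. Names and overlaps of genes come from the TAIR10.1 reference, which matched 31912 identifiers and all 38 members. In it 12 members overlap another gene, 11 of them a protein-coding one: RS2Z32, RS2Z33, RS31a, RS40, RS41, SC35, U2AF35A, PRP40A, PTB1, UBP1B and SKIP; U1A overlaps a noncoding gene. Reads of such genes may be mixed. Controls are labelled untreated, while the protocol names water.

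Totals were recovered from 19975 single-transcript genes: 20.8% to 29.5% of genes with few reads were whole multiples within 0.02, against 2.39% to 3.34% at a wrong total. A fragment over 1 kb of transcript corresponds to 0.0177 to 0.0575 FPKM, which covers counting error only. Column sums do not set depth.

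Genes with at least 1 FPKM in at least 3 libraries were kept. log2(FPKM + 1), with a pseudocount of 1, was fitted with limma 3.58.1 in R 4.3.3, as 4 group means over 12 libraries with a mean-variance trend (8 residual degrees of freedom). Ratios were tested in Python 3.11.15; an adjusted p of exactly 0.05 does not count as under 0.05. On simulated data of 18177 genes for irr against WT over both treatments, 77% of 100 genes changed by 0.5 and 95% of 100 changed by 1 (log2) were called, with 4.97% of calls false. For Pep1 in WT these were 39%, 76% and 7.26%. The changed genes were drawn only from well-expressed genes, and the simulated noise was independent between genes and libraries. All changes were upward and covered only 100 genes of each size among the 18177. Calling rates after the adjustment depend on the share of changed genes, which is not known for these data. The simulated rates therefore do not carry over to other shares. They also do not cover low genes such as SCL28 and RS31a, or a library in which many genes shift together.

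Members and lists were chosen with earlier results of these data known. Of 70 list entries 13 were dropped because name and identifier did not match in the reference. Named genes are the members called in any comparison, the 3 with the smallest p in each, the highest and lowest of each role, and both of each pair; from the other lists, up to 4 called genes a comparison or those with the smallest p. Some of them are not printed. RBP47B is described for a value chosen after it was seen. The settings varied were the pseudocount (0.1 or 5), the filter (none), the scaling (equal library medians, quantile normalization), a replicate block, fits of 2 groups alone, and omission of each library.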

Additional observations from a re-analysis of the deposited data

How the results depend on the processing

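Among single settings other than leaving out a library, 44 of 50 counts of called members or ratios stayed within 1.5 times the reported count, and no difference reversed. Most of the 44 were counts reported as 0 that stayed at 0, which says little about stability. In fits without 1 library, 74 counts stayed within that range and 34 moved. For irr against WT over both treatments, 5 members were called with equal library medians (RS31, SCL30, GRP7, GRP8, PRP40A) and 5 with quantile normalization (RS31, SC35, GRP7, GRP8, PRP40A), against 3 as reported; the share of all genes called was 16.4% and 16.7%, against 12.4%. For Pep1 over both genotypes, 2 were called with equal library medians, against 1. For Pep1 in WT, 1 (GRP8, adjusted p = 0.0313) was called in a fit of only the 2 groups, against 0. With a pseudocount of 0.1, 0 ratios were called for genotype and 0 for Pep1, against 2 and 5. The cause of these shifts was not tested.

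Without 1 library, called members ranged from 0 to 3 for irr over both treatments (0 without WT water replicate 1 or 3) and from 1 to 3 for Pep1 over both genotypes. They ranged from 0 to 1 for Pep1 in WT and for irr with Pep1, and were 0 for Pep1 in irr, irr under water and the interaction. Called ratios ranged from 0 to 1 for genotype and from 0 to 4 for Pep1, where the test has only 200 arrangements.

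Over 18 same-numbered pairs of libraries from different groups the deviations from group means correlated at -0.523 to 0.194, with a median of 0.02. Over 36 pairs with different numbers they correlated at -0.238 to 0.351, with a median of -0.01. Deviations from a mean of 3 are tied to each other, so these values cannot decide whether the replicate number pairs the samples. With the number as a replicate block, RS2Z32 missed the threshold (0.20, adjusted p = 0.0624) and GRP7 and GRP8 were still called. Limits are the 3 libraries per group, the unknown strand setting and close gene copies. A further limit is that the deepest library was the lowest of the 12 for 17 of the 38 genes.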
